A study of Mus musculus with 8 samples.

Results

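Nonclassical monocytes were picked out of single-cell RNA profiles of mouse blood, and 781 barcodes were described by radiation treatment and by genotype label. A barcode from the 2 blood libraries was a member when it held at least 500 gene unique molecular identifiers (UMIs, each standing for 1 captured RNA molecule), at least 200 genes, at most 25% mitochondrial UMIs and at least 20 hashtag UMIs. Its 5 neutrophil genes (S100a8, S100a9, Retnlg, Csf3r and Cxcr2) had to hold under 5% of its gene UMIs. Its 6 nonclassical genes (Ear2, Ace, Treml4, Adgre4, Spn and Eno3) had to hold at least 5 UMIs in sum, and no fewer than its 4 classical monocyte genes (Ly6c2, Ccr2, F13a1 and Vcan). A member counted as labelled WT where hashtag B0301 was at least as high as B0302, and as cKO where B0302 was at least 4 times B0301. The 781 members came from 17951 labelled barcodes of blood and from 32121 passing barcodes of the 4 libraries of the series. A further 106 blood barcodes met the limits on genes and carried neither label. Members had been chosen on the measured UMIs of these 15 genes, so the levels of those genes are given as a description only.

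The mice carried MC38 tumors, a transplanted mouse colon carcinoma line, and were on the C57BL/6J background. The tumor was irradiated once with 20 Gy (IR) or left unirradiated (control), and tissue was taken 3 days later. All animals carried floxed Ythdf2 alleles. WT stands for Ythdf2 fl/fl, and cKO for Lyz Cre+; Ythdf2 fl/fl, in which Cre is expressed from the Lyz2 locus of myeloid cells and is not limited to monocytes. The 4 groups were control WT, control cKO, IR WT and IR cKO. Each was a pool of 5 mice, and values below that follow each other in 4 are in this order. The 2 genotypes of a treatment were tagged with hashtag antibodies and run in 1 library, whereas control and IR were separate libraries, so the effect of treatment and that of the library cannot be told apart. Cells had been sorted as CD45+CD11b+Ly6Chi. With 1 pool per group there is no replicate check and no test. The 95% intervals given here (exact Clopper-Pearson for shares, Newcombe for differences of shares, exact conditional binomial for ratios) cover counting error only. Mice of both sexes were 8 to 10 weeks old, per the study's methods.

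Blood monocytes of the mouse are usually split into classical cells, which are rich in Ly6C and enter inflamed tissue through the chemokine receptor CCR2, and nonclassical cells, which are poor in Ly6C, rich in CX3CR1 and CD43, and patrol the inner wall of vessels. Nonclassical monocytes arise from classical ones, need the nuclear receptor Nr4a1 and the factor C/EBPβ, and clear debris from the endothelium. A Ly6Chi gate is thus set toward classical cells, and every share below is a share of what passed that gate.

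The markers that were not part of the rule were those of nonclassical monocytes. Values are CPM, the UMIs of a gene summed over the members of a group and scaled to 1000000 gene UMIs. Pou2f2, which encodes the transcription factor Oct-2, stood at 680, 756, 744 and 680 CPM in members, against 227 to 286 CPM in classical monocytes of the same libraries. These classical monocytes were barcodes that passed the same limits with the classical genes ahead, 3893 in number. Cd300e, an activating receptor of monocytes, stood at 35.2, 63.4, 62.6 and 30.3 CPM in members and at 0.180 to 0.820 CPM in classical monocytes. Both markers were higher in members of every group. Cd300e UMIs were seen in 16.4, 23.3, 24.4 and 13.1% of members and in 0.0867 to 0.468% of classical monocytes. The median depth was 8659 to 10561 UMIs per member and 9792.0 to 12792.5 per classical monocyte. Fcgr4, a receptor for IgG2 antibodies, stood at 114, 190, 201 and 107 CPM, against 9.69 to 23.6 CPM in classical monocytes. Nr4a1 ran from 1059 CPM in control WT to 561 CPM in IR cKO, and its level in classical monocytes ran from 424 to 170 CPM in the same order of groups. The 13 markers of nonclassical monocytes outside the rule summed to 9300, 9187, 8490 and 7157 CPM in members and to 2907 to 3982 CPM in classical monocytes. Of 6 further markers of classical monocytes, Plac8 went against its list, at 5006, 6212, 7095 and 8292 CPM in members and 3864 to 5038 CPM in classical monocytes.

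The genes of the rule itself followed their use. Ear2, a ribonuclease of the eosinophil-associated family, stood at 522, 560, 573 and 535 CPM in members and at 48.6 to 68.8 CPM in classical monocytes. Since its family holds near-identical copies, its counts are uncertain. Ace, the angiotensin-converting enzyme, stood at 656, 774, 706 and 686 CPM. Treml4, an innate receptor of the TREM family, stood at 263, 273, 281 and 231 CPM, and Adgre4, an adhesion receptor related to F4/80, at 321, 349, 307 and 266 CPM. Eno3, an enolase best known from muscle, stood at 216, 274, 295 and 230 CPM, against 5.83 to 10.4 CPM in classical monocytes. No group was highest in all of these genes. Ly6c2, which encodes the Ly6C antigen of the sort, stood at 173, 173, 278 and 286 CPM in members and at 1235 to 1947 CPM in classical monocytes. Ear2 UMIs were seen in 79.8, 87.2, 85.3 and 92.9% of members and in 0.614 to 2.99% of neutrophil barcodes, which had a median of only 2551.5 to 2698.0 UMIs. With each barcode thinned to 1000 UMIs the shares were 37.9, 35.6, 38.5 and 35.4% of members and 0.269 to 0.790% of neutrophils. The shares of members were then close to each other, whereas before thinning they were lowest in control WT and highest in IR cKO.

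In mm10, Ear2 lies at chr14:44102654-44103534 (plus strand), Ace at chr11:105967945-105989964 (plus), Treml4 at chr17:48264295-48275360 (plus), Adgre4 at chr17:55749984-55853662 (plus) and Pou2f2 at chr7:25087344-25179726 (minus). Intervals given here span whole protein-coding genes. They come from an annotation of the same build but another release than the one used for counting.

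**Figure D1:**
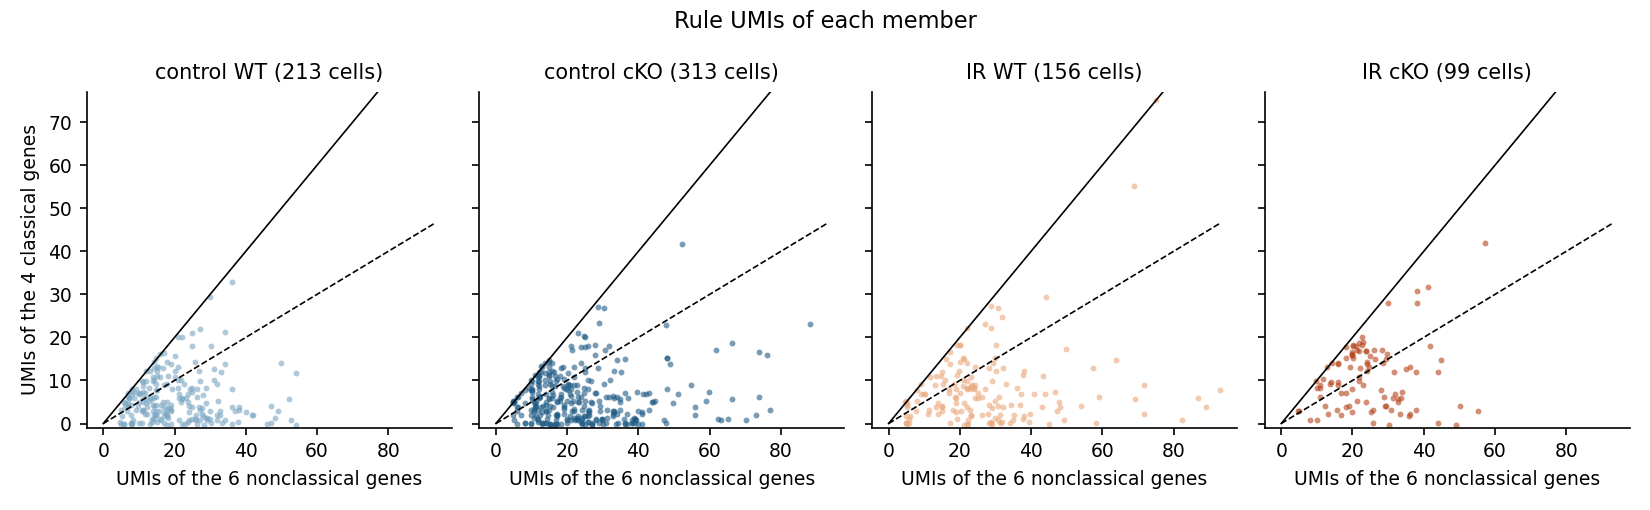
UMIs of the 6 nonclassical genes (x axis) against UMIs of the 4 classical genes (y axis), with 1 panel per group and 1 point per member, moved slightly at random so that equal values can be seen. The solid line marks equal sums, above which no member can lie, and the dashed line a classical sum of 0.5 times the nonclassical sum; between them lay 52.5% of members in IR cKO and 27.6 to 31.9% in the other groups.

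The rule left a continuous edge. 23 members sat at the minimum of 5 nonclassical UMIs, and 25 barcodes with 4 UMIs fell just outside. 36 members had equal nonclassical and classical sums, and 42 barcodes with 1 more classical than nonclassical UMI fell just outside. Near the line, where the classical sum was at least 0.5 times the nonclassical sum, lay 250 members, and 296 barcodes outside had up to 2 classical UMIs for each nonclassical one. The near range held 68 of 213 members in control WT (31.9%, 25.7 to 38.6), 87 of 313 in control cKO (27.8%, 22.9 to 33.1), 43 of 156 in IR WT (27.6%, 20.7 to 35.3) and 52 of 99 in IR cKO (52.5%, 42.2 to 62.7). The near share was highest in IR cKO, which is a description only, since the genes that define the range had chosen the members. No classical UMI at all was seen in 28, 43, 18 and 4 members.

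Markers outside the rule followed this range. Among strict members (defined with the other-lineage counts below), pooled over the groups, Cd300e stood at 203 CPM with no classical UMI, at 47.0 CPM between the ends and at 4.42 CPM near the line. Fcgr4 stood at 297, 166 and 54.5 CPM, and the integrin subunit Itgal (LFA-1) at 1429, 983 and 624 CPM, in the same order. Fn1, the fibronectin gene of classical monocytes, ran the other way at 30.6, 109 and 368 CPM. Members were thus a graded range rather than a single level, and the share near the line is given again below where it touches a comparison.

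**Figure D2:**
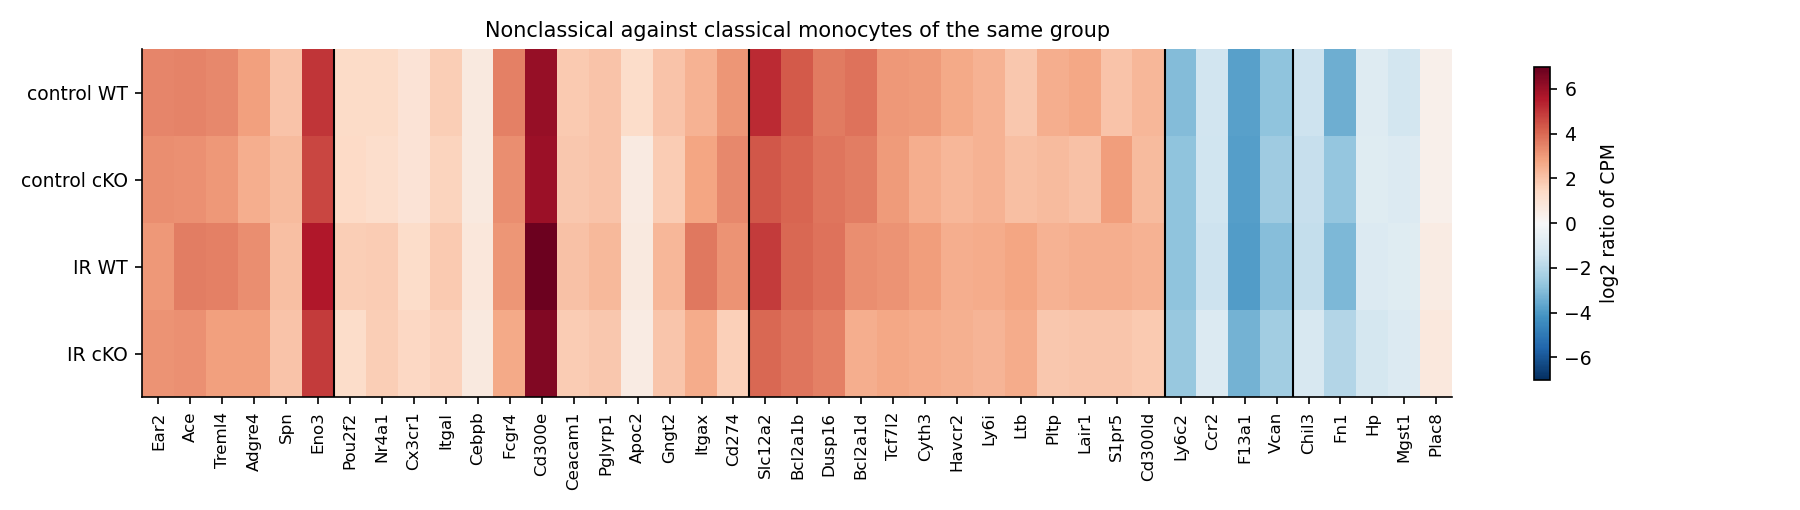
Log2 ratio of CPM in nonclassical over classical monocytes of the same group (colour, red higher and blue lower) for each gene (columns) in each of the 4 groups (rows). From left to right, vertical lines part the 6 nonclassical rule genes, the 13 nonclassical markers outside the rule, those of the 15 genes furthest above classical monocytes that are not already shown, the 4 classical rule genes and classical markers outside the rule; Cd300e was 6.0 to 6.86 higher and Pou2f2 1.31 to 1.71 higher.

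Of 7357 genes counted in both monocyte classes, 16 were higher by at least 2 on the log2 scale in all 4 groups and 12 were lower. These are descriptions of cells split by measured genes. Slc12a2, a sodium, potassium and chloride cotransporter, ranked highest among genes outside the rule with at least 100 UMIs over both classes in each group, with 82.5, 114, 144 and 83.6 CPM in members and 2.06 to 5.51 CPM in classical monocytes. The copies Bcl2a1b and Bcl2a1d, prosurvival proteins of the BCL2 family, were also among the 15 highest, and their UMIs are uncertain because the copies are nearly identical. Dusp16 (a phosphatase of JNK and p38), Tcf7l2 (a factor of the Wnt pathway), Itgax (CD11c), Havcr2 (TIM-3), Pltp (a phospholipid transfer protein) and S1pr5 (a sphingosine-1-phosphate receptor) belonged to this list too. The scavenger receptor Cd36 stood at 96.2, 102, 98.1 and 60.6 CPM in members against 1.44 to 4.22 CPM in classical monocytes. Fabp4, a fatty acid carrier, stood at 74.1, 122, 40.7 and 44.1 CPM against 0.240 to 2.34 CPM. Cd300e, Cd36 and Fabp4 had fewer UMIs than this minimum in some groups and were not ranked.

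The genes that check the labels came out as follows. Ythdf2 (chr4:132184912-132212303, minus strand) stood at 49.4 CPM in control WT, 462 CPM in control cKO, 59.1 CPM in IR WT and 441 CPM in IR cKO, so the cells labelled cKO had more Ythdf2 UMIs, not fewer. The UMIs come from transcript 3′ ends, and if the deleted part does not hold the counted tags they check nothing. Lyz2 (chr10:117277331-117282321, minus strand), the locus of the Cre, stood at 13163, 210, 11352 and 102 CPM. It reached 2000 CPM in 201 of 213, 3 of 313, 144 of 156 and 0 of 99 members. The near copy Lyz1 stood at 11, 328, 23.0 and 366 CPM. Lyz2 thus separated the labels, whereas the Ythdf2 UMIs did not show the deletion. Groups are therefore called by their labels throughout, and each direction between WT and cKO rests on those labels.

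UMIs of other lineages were few in most members and concentrated in some. Neutrophil genes of the rule held at least 1% of UMIs in 45, 31, 39 and 8 members (21.1, 9.90, 25 and 8.08%), and 8 neutrophil genes outside the rule summed to 328, 160, 309 and 165 CPM, so both were higher in cells labelled WT. The label rule asks for a 4-fold hashtag margin in cKO only. Of WT members, 17 of 213 in control and 19 of 156 after IR had B0301 under 4 times B0302. The part of this in the difference between labels was not tested. NK cell markers reached 5 UMIs in 7, 1, 9 and 0 members, which held 749 of the 759 NK UMIs of control WT and 1034 of 1035 of IR WT. In 7 and 8 of these WT members Spn (CD43) was the only nonclassical gene seen. Hemoglobin UMIs sat almost wholly in 2 members of control WT (5713 of 5772) and 1 of control cKO (3666 of 3756). The defining markers Ms4a1 (B cells), Cd3e and Trac (T cells), Clec9a and Siglech (dendritic cells) and Folr2 (macrophages) were at 0 UMIs, and basophil markers were at 0 as well. Other markers of these lists were not at 0. The B cell gene Ighm had 288, 365, 232 and 192 UMIs, and the 6 B cell markers summed to 139 to 186 CPM, against 181 to 206 CPM in classical monocytes. The T cell markers summed to 0.918 to 7.46 CPM, with 7 UMIs of Cd3d in control WT and 11 of Trbc2 in IR WT. The dendritic cell markers summed to 2.63 to 10.6 CPM, with 15 UMIs of Cd209a and 8 of Flt3 in control cKO. The macrophage markers summed to 2.30 to 26.6 CPM, with 24 UMIs of C1qb in IR cKO. Platelet markers summed to at most 0.686 CPM. A count of 0 allows up to 1.58, 1.03, 1.72 and 2.75 CPM in the 4 groups. Values are therefore also given for strict members, a choice made after seeing the data: 149, 263, 101 and 91 barcodes with under 0.5% neutrophil UMIs, under 2 UMIs of other lineages and, for WT, B0301 at least 4 times B0302.

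The depth behind these values was 1902873, 2917576, 1742570 and 1089053 gene UMIs. Median genes per member were 2636, 2742, 3062.5 and 3079, and median mitochondrial shares 1.37, 1.63, 1.44 and 1.70%. The blood libraries held 51731085 (control) and 51653956 (IR) gene UMIs over 9622 and 9237 passing barcodes, 24 barcodes were shared between them, and 0 were members in both.

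The first question was how common nonclassical monocytes were. They made up 213 of 5101 labelled barcodes in control WT (4.18%, 95% interval 3.64 to 4.76), 313 of 4014 in control cKO (7.80%, 6.99 to 8.67), 156 of 4900 in IR WT (3.18%, 2.71 to 3.71) and 99 of 3936 in IR cKO (2.52%, 2.05 to 3.05). Control cKO stood apart from the other groups, whose shares lay between 2.52 and 4.18%. Within cKO the share was 5.28 points lower after IR (difference -5.28, -6.26 to -4.33), a ratio of 0.323 (0.255 to 0.406). Within WT it was lower by a smaller amount (difference -0.992, -1.73 to -0.253), a ratio of 0.762 (0.616 to 0.942). In control blood the share was 3.62 points higher in cKO than in WT (2.64 to 4.63), whereas in irradiated blood the interval of the difference held 0 (-0.668, -1.36 to 0.0364). Among strict members the latter difference turned to 0.212 (-0.404 to 0.848), and that within cKO was -4.24 (-5.15 to -3.35).

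Classical monocytes did not follow this order. They made up 22.6, 21.3, 20.8 and 22.0% of barcodes, and their difference between IR and control was -1.79 points in WT (-3.40 to -0.170) and 0.726 points in cKO (-1.08 to 2.54). As a share of both monocyte classes, members were 15.6% (13.7 to 17.6), 26.8% (24.3 to 29.5), 13.3% (11.4 to 15.3) and 10.3% (8.42 to 12.3). The differences were -16.6 points for IR in cKO (-19.7 to -13.3), -2.33 points for IR in WT (-5.05 to 0.425), 11.2 points for cKO against WT in control (8.04 to 14.4) and -3.01 points in irradiated blood (-5.71 to -0.247). Among strict members the last of these was -0.328 (-3.33 to 2.70), with an interval that held 0, and that for IR in WT was -4.51 (-7.65 to -1.35), with one that did not. These shares describe sorted cells of 1 pool each, and the part that the gate, the library or the spread between mice had in them was not tested.

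**Figure D3:**
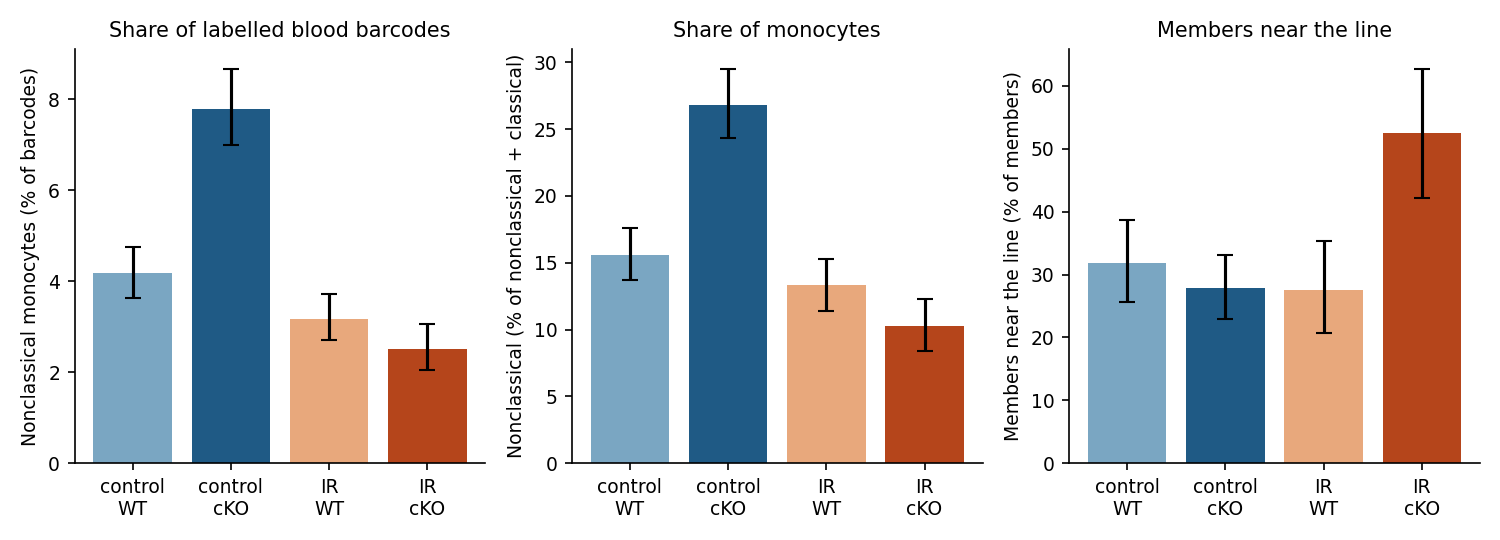
Share of nonclassical monocytes among labelled blood barcodes (left), among both monocyte classes (middle), and share of members near the classical line (right) in the 4 groups (y axes, percent), with 95% Clopper-Pearson intervals as error bars that cover counting error only. Control cKO lies highest in the first 2 panels, at 7.80 and 26.8%, and IR cKO highest in the last, at 52.5%.

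For expression, 4 contrasts were read: IR against control within each label, and cKO against WT within each treatment. Each group enters a pair of them, so they are not independent of each other. A gene was counted when it had at least 100 UMIs over both groups, and was called higher or lower when the log2 ratio of CPM, with 1 UMI added to each group, reached 1. The median log2 ratio over all counted genes was 0.04, 0.03, 0.05 and 0.04 in the 4 contrasts. The plot of named genes gives these ratios side by side.

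**Figure D4:**
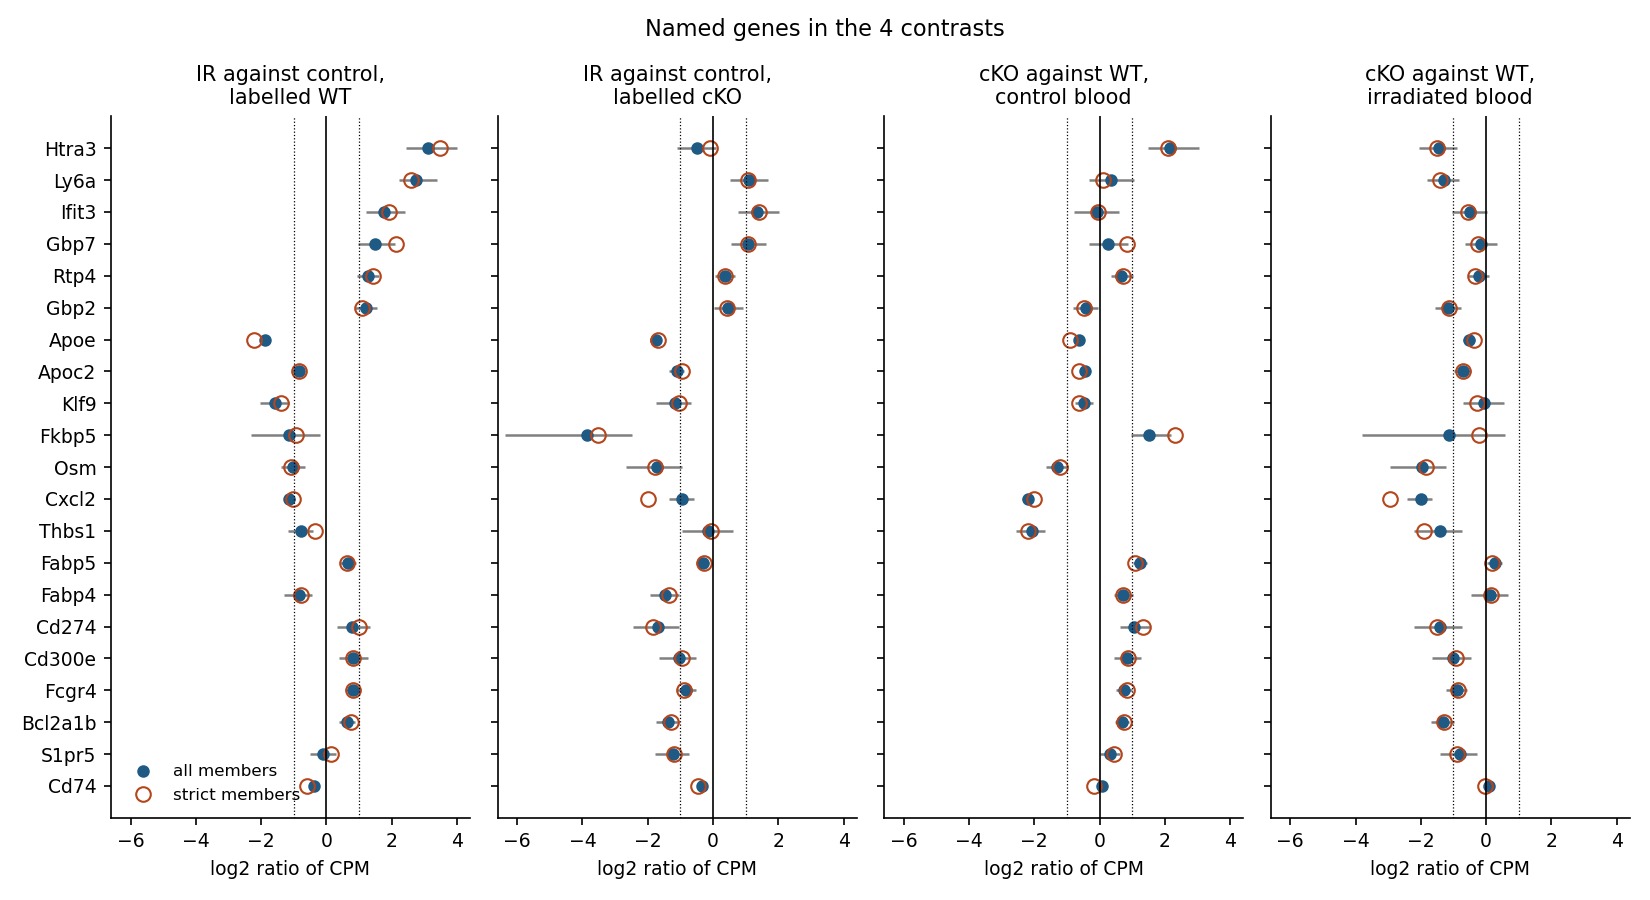
Log2 ratio of CPM (x axis) of named genes in nonclassical monocytes in the 4 contrasts, with filled points for all members, grey bars for their 95% counting intervals, open circles for strict members and dotted lines at the limit of 1 in either direction. Htra3 lay at 3.1 after IR in WT and at -0.49 after IR in cKO, Apoe at -1.87 and -1.76, and Bcl2a1b at 0.64 and -1.37.

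In cells labelled WT, interferon-inducible genes and Htra3 were higher after IR, and Apoe was lower. Of 4606 genes counted, 28 passed the limit (0.608%), 12 of them higher (0.261%) and 16 lower (0.347%). Among strict members the numbers were 10 (0.307%) and 13 (0.399%) of 3260. Htra3, a secreted serine protease (chr5:35652023-35679782, minus strand), ranked first. It stood at 8.93 CPM in control WT and 80.9 CPM in IR WT, with UMIs in 11 of 213 and 57 of 156 members, a log2 ratio of 3.1 (2.45 to 4.0; strict 3.48). Classical monocytes had 0.808 and 2.48 CPM. Ly6a, which encodes the interferon-inducible surface antigen Sca-1 (chr15:74994877-74998031, minus), stood at 15.2 and 105 CPM, a log2 ratio of 2.74 (2.21 to 3.4). In classical monocytes it stood at 7.09 and 13.3 CPM.

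Interferon genes followed. The antiviral gene Ifit3 stood at 16.8 CPM in control and 58.5 CPM after IR (log2 ratio 1.77, 1.21 to 2.42), while classical monocytes had 35.7 and 23.2 CPM. The guanylate-binding proteins Gbp7 and Gbp2, which act against intracellular pathogens, were 1.49 (0.97 to 2.09) and 1.21 (0.89 to 1.55) higher. Rtp4, an interferon-induced chaperone of receptors, was 1.26 higher (0.94 to 1.61), the DNA-sensor family gene Ifi206 1.45 higher (0.84 to 2.15), and Rsad2, which encodes viperin, 1.2 higher (0.74 to 1.70). Of 12 type I interferon genes in the tables, 7 could be counted. All 7 lay above 0 and 2 were past the limit, with a median of 0.62 against 0.04 over all genes. The list summed to 802 CPM in control WT and 1268 CPM in IR WT, to 749.7 and 1202.9 CPM among strict members, and to 989 and 1041 CPM in classical monocytes. In neutrophil barcodes labelled WT the sum was 1164.5 and 2003.9 CPM, so a higher sum after IR was not particular to members. Of the interferon-gamma and GBP genes, 5 were counted, 5 lay above 0 and 2 were past the limit (median 0.98). The 8 MHC class I genes all lay above 0, with a median of 0.41 and 0 past the limit.

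On the other side, Apoe, which encodes the lipid carrier apolipoprotein E (chr7:19696109-19699188, minus), stood at 1761 CPM in control WT and 482 CPM in IR WT, with UMIs in 179 of 213 and 86 of 156 members. Its log2 ratio was -1.87 (-1.98 to -1.76; strict -2.22). Classical monocytes had 822 and 249 CPM, so the difference was seen in both monocyte classes. Klf9, a Krüppel-like factor, was at -1.57 (-2.03 to -1.16), and Rgs1, a regulator of G-protein signalling, at -1.48 (-2.21 to -0.86). Tmem176b, a membrane protein of myeloid cells, went from 243 to 82.6 CPM (-1.55, -1.83 to -1.28). The 4 hemoglobin genes had the lowest ratios (-9.17 for Hba-a1), and their UMIs in control WT sat in 2 members. MHC class II genes lay below 0 in 6 of 7 cases (median -0.38), and their sum was 6648 CPM in control WT and 5051 CPM in IR WT.

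In cells labelled cKO, Cd274, Cd300e, S1pr5, the near-identical Bcl2a1 copies and Apoe were lower after IR. The 6 counted type I interferon genes lay above 0. Ifit3 and Rsad2, which passed the limit in WT, had too few UMIs to be counted here. Of 4910 genes counted, 44 passed the limit (0.896%), 8 of them higher (0.163%) and 36 lower (0.733%). Among strict members 6 (0.139%) and 27 (0.627%) of 4309 did. Bcl2a1b (chr9:89199209-89207827, plus strand) stood at 191 CPM in control cKO and 73.5 CPM in IR cKO, a log2 ratio of -1.37 (-1.73 to -1.04). Bcl2a1a was at -1.06 and Bcl2a1d at -1.06, while the more general survival gene Mcl1 was at -0.11 (-0.21 to -0.02). Of 9 BCL2 family genes counted, 8 lay below 0 and these 3 copies were past the limit. Cd274, which encodes the checkpoint ligand PD-L1 (chr19:29367455-29388095, plus), stood at 59.6 and 18.4 CPM (-1.67, -2.45 to -1.03). Cd300e (chr11:115051917-115062177, minus) was at -1.05 (-1.65 to -0.53), S1pr5, which guides the egress of NK cells and monocytes, at -1.23 (-1.79 to -0.74), and Apoc2, an apolipoprotein, at -1.11 (-1.35 to -0.88). All 13 nonclassical markers outside the rule lay below 0 in this contrast, with 3 past the limit and a median of -0.46 against 0.03 over all genes. Among strict members the median was -0.45 and 1 was past the limit.

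The share of members near the classical line was 27.8% in control cKO and 52.5% in IR cKO, and it moved with these genes. Within the near range, Bcl2a1b stood at 60.6 CPM in control cKO and 38.0 CPM in IR cKO among strict members, and between the ends at 199 and 105 CPM. Cd274 stood at 20.2 and 9.05 CPM near the line and at 66.3 and 23.6 CPM between the ends. Both genes had lower values after IR inside each of these ranges. Cd274 had only 20 UMIs over all members of IR cKO, and no intervals are given within ranges. Cd300e stood at 4.33 and 5.43 CPM near the line and at 54.3 and 34.2 CPM between the ends. It had 33 UMIs over all members of IR cKO, so its values near the line are too low to be read for direction. The range with no classical UMI held 4 members of IR cKO and is not read. Fcgr4 was at 59.1 and 50.7 CPM near the line and at 187 and 129 CPM between the ends. How much of the lower markers came with the shift along the range was not tested.

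Apoe was lower after IR here too, at 1131 CPM in control cKO and 334 CPM in IR cKO (-1.76, -1.92 to -1.60), with 1181 and 184 CPM in classical monocytes. Fkbp5, an immunophilin of the steroid receptor complex, had 135 UMIs in control cKO and 3 in IR cKO (46.3 and 2.75 CPM; -3.85, -6.37 to -2.49). Classical monocytes showed 47.3 and 9.20 CPM, so Fkbp5 was lower in both classes. Klf9 was at -1.17 (-1.74 to -0.66), the cytokine gene Osm at -1.72 (-2.67 to -0.96), and the immediate-early gene Ier3 at -2.88 (-4.31 to -1.89; strict -1.74). The fatty acid carrier Fabp4 was at -1.46 (-1.94 to -1.04). Of 10 lipid genes counted, 9 lay below 0 and 3 were past the limit (Apoe, Apoc2 and Fabp4). Of 14 NF-kB targets, 11 lay below 0 with a median of -0.55, and 1 was past the limit.

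Among genes higher after IR in cKO, Ifi213, a relative of Ifi206, was at 1.29 (0.72 to 1.90), Ly6a at 1.09 (0.52 to 1.70) and Gbp7 at 1.07 (0.56 to 1.61). Abcg3, a transporter, was at 1.07, Nucb2 at 1.12 and Tmem229b at 1.13. The 6 counted type I interferon genes all lay above 0 with a median of 0.61 and 0 past the limit. In WT the median was 0.62, over a set of genes that was not the same. Ifit3 and Rsad2, both past the limit in WT, were not counted here. They had 46 and 57 UMIs in control cKO and 45 and 34 in IR cKO. These came from 2917576 gene UMIs in control cKO and 1089053 in IR cKO. Relative to that depth, Ifit3 and Rsad2 were both higher in IR cKO, on few UMIs. Their UMIs were seen in 33 and 34 of 313 members and in 21 and 19 of 99. Isg15, a ubiquitin-like protein, was 0.60 higher in WT (0.35 to 0.85) and 0.80 higher in cKO (0.53 to 1.08), and Irf7, a factor of the interferon response, 0.58 and 0.62. The difference between the effects of IR in the labels was not tested for any gene.

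**Figure D5:**
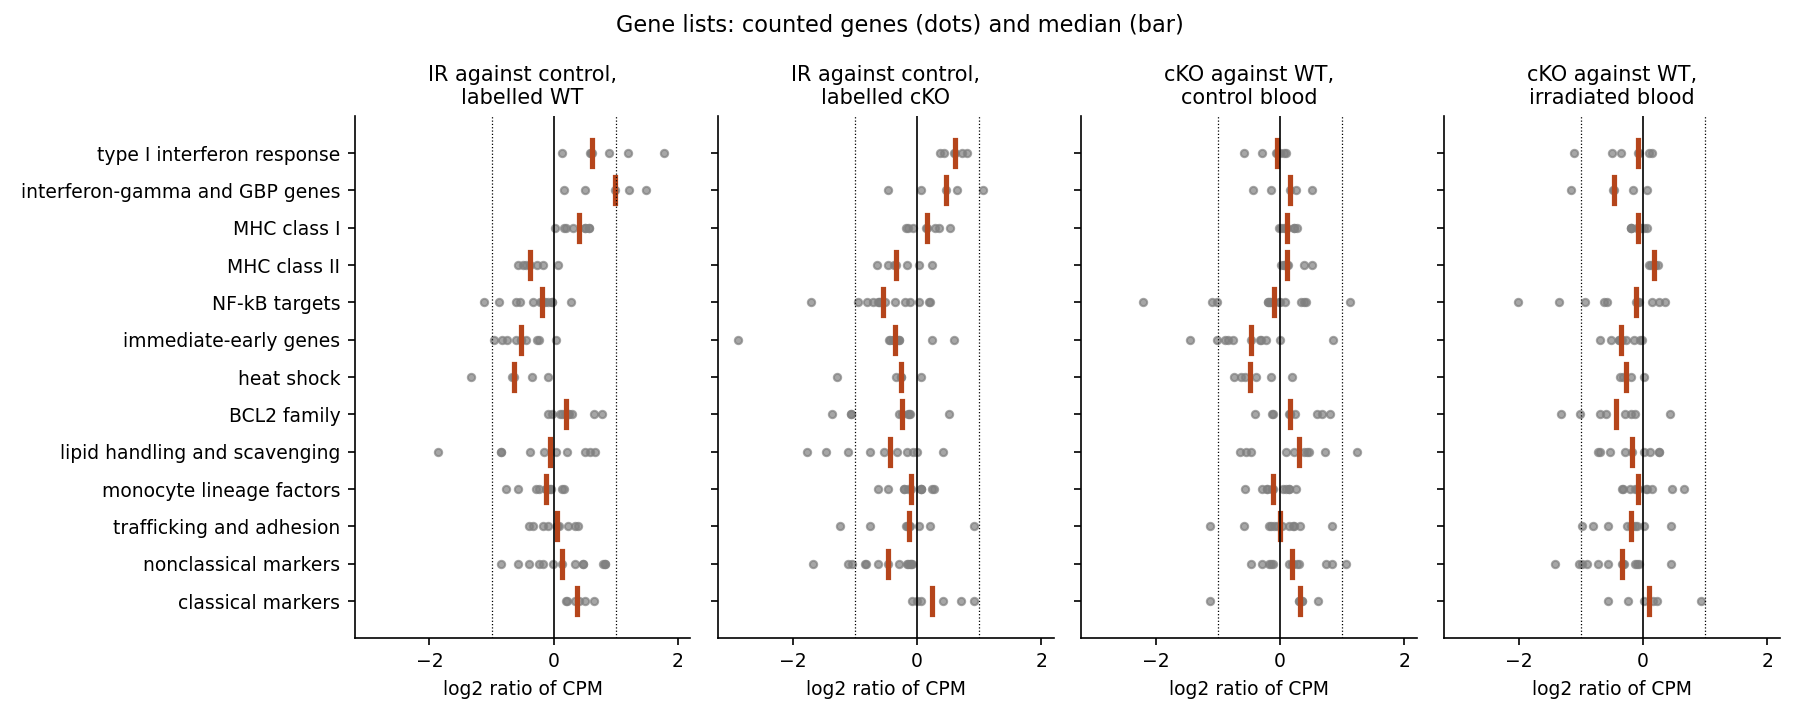
Log2 ratio of CPM (x axis) of each counted gene (dots) and the median (vertical bar) of gene lists in the 4 contrasts, with dotted lines at the limit of 1 in either direction. The type I interferon list lies above 0 in both IR contrasts (medians 0.62 over 7 counted genes and 0.61 over 6). The nonclassical marker list lies below 0 after IR in cKO (median -0.46).

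In control blood, cKO members had more UMIs of Htra3, Fkbp5 and Fabp5 than WT members and fewer of Thbs1, Osm and Cxcl2. Of 5344 genes counted, 54 passed the limit (1.01%), 12 of them higher (0.225%) and 42 lower (0.786%). Among strict members the split turned, with 19 higher (0.425%) and 6 lower (0.134%) of 4475, and only 13 of the 54 genes past the limit stayed past it in the same direction. Htra3 stood at 8.93 CPM in control WT and 41.5 CPM in control cKO (2.16, 1.48 to 3.04; strict 2.10). Fkbp5 was at 15.8 and 46.3 CPM (1.53, 0.97 to 2.18), and classical monocytes had 7.81 and 47.3 CPM. Fabp5, another fatty acid carrier, stood at 123 and 290 CPM (1.24, 1.03 to 1.45; strict 1.09). Rasgrp1, an activator of Ras, was at 1.45, Klhl6 at 1.16, Tnf at 1.13 (0.52 to 1.83) and Cd274 at 1.06 (0.62 to 1.54). These genes kept their direction among strict members.

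Among lower genes, Thbs1, which encodes the matrix protein thrombospondin-1, stood at 86.7 CPM in control WT and 20.2 CPM in control cKO (-2.08, -2.55 to -1.66; strict -2.20). Rgs1 was at -2.15 (-2.89 to -1.56) and Osm at -1.30 (-1.64 to -0.98; strict -1.21). Cxcl2, a chemokine that draws neutrophils, stood at 573 and 125 CPM (-2.20, -2.38 to -2.03; strict -2.02). Neutrophils of control WT had 4620 CPM of Cxcl2, and 45 WT members against 31 cKO members carried at least 1% neutrophil UMIs. Il1b, the interleukin-1β gene, was at -1.10 (-1.19 to -1.01), and at -0.44 among strict members. The NK genes Gzma (-3.72) and Nkg7 (-3.10) and the chemokine gene Ccl5 (-3.99) followed the 7 WT members with NK UMIs. Of 11 immediate-early genes counted, 9 lay below 0 with a median of -0.47 and 2 past the limit (Fosb at -1.44 and Dusp1 at -1.02). Their sum was 13518 CPM in control WT and 9080 CPM in control cKO, and in classical monocytes 13478 and 10114 CPM.

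In irradiated blood, Htra3, Ly6a, Cd274, Cd300e and Bcl2a1b were lower in cKO, and few genes were higher. Of 3959 genes counted, 60 passed the limit (1.52%), 5 of them higher (0.126%) and 55 lower (1.39%). Among strict members 6 were higher (0.198%) and 14 lower (0.462%) of 3033, and 14 of the 60 stayed past the limit in the same direction. Trem2, a lipid-sensing receptor, was at 0.94 (0.55 to 1.34) and Fn1 at 0.93 (0.70 to 1.17; strict 0.59). Htra3 was lower, at 80.9 and 29.4 CPM (-1.44, -2.06 to -0.90; strict -1.50), as were Ly6a (-1.30, -1.81 to -0.84), Gbp2 (-1.16, -1.58 to -0.78) and Rsad2 (-1.11, strict -0.66). Cd274 stood at 49.9 and 18.4 CPM (-1.41, -2.22 to -0.73) and Bcl2a1b at 185 and 73.5 CPM (-1.32, -1.70 to -0.97). Cd300e was at -1.03 (-1.65 to -0.47) and Fcgr4 at -0.90 (-1.22 to -0.60), beside a near range of 27.6% of members in IR WT and 52.5% in IR cKO. Of 13 nonclassical markers outside the rule, 12 lay below 0 with a median of -0.34 and 2 were past the limit (Cd274 and Cd300e). Of 10 counted among strict members 0 were, but Cd274 and Cd300e had too few UMIs there to be counted. The marker above 0 was the fractalkine receptor Cx3cr1, at 302.4 and 413 CPM (0.45, 0.27 to 0.63).

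The NK genes among the lower genes of that contrast were carried by few cells. Gzma had 660 UMIs in IR WT and 1 in IR cKO. Nkg7 had 181 UMIs in IR WT and 0 in IR cKO, at least 37.7-fold lower with the limit set at 3 UMIs in the group. The 9 IR WT members with NK markers held 1034 of its 1035 NK list UMIs. Stfa2l1, a stefin known from neutrophils, stood at 112 and 15.6 CPM (-2.79). Among strict members it was at -0.58, on only 11 UMIs over both groups. Over all members, Stfa2l1 had UMIs in 31 of 156 members of IR WT and 6 of 99 of IR cKO. Cxcl2 was at -2.01 (-2.41 to -1.66; strict -2.95), Osm at -1.98 (-2.96 to -1.22) and Thbs1 at -1.41 (-2.22 to -0.73), so these 3 genes were lower in cKO under both treatments.

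The remaining lists are given by their medians. In the 4 contrasts these were -0.12, -0.09, -0.11 and -0.08 for 11 monocyte lineage factors, with 0 past the limit in any. They were 0.11, -0.10, -0.02 and 0.00 for the m6A machinery (Ythdf1, for example, stood at 39.9, 40.1, 44.8 and 47.7 CPM), and 0.20, -0.06, 0.01 and -0.12 for p53 targets. Trafficking and adhesion genes had 0.05, -0.13, 0.00 and -0.19, Fc receptors 0.14, -0.14, 0.26 and -0.01, and checkpoint and costimulation genes 0.14, -0.15, 0.12 and -0.08. The medians were -0.05, 0.17, 0.05 and 0.24 for complement genes and -0.64, -0.26, -0.48 and -0.27 for heat shock genes. In the latter list Hspa1b, an inducible HSP70, was at -1.33 (-2.01 to -0.74) after IR in WT and -1.29 (-2.29 to -0.47) in cKO. Genes named by the study (8 in all, among them Metrnl and Ccl5) had medians of 0.18, -0.20, -0.40 and -0.34, over 5, 3, 5 and 5 counted genes. Among strict members, with 3 counted in each contrast, the medians were 0.40, -0.21, 0.11 and -0.42, so the sign turned in control blood. Ccl5 was at -3.99 there and at -0.08 among strict members, on 25 UMIs over both groups. Because the study chose these 8 genes on the same samples, they are no independent evidence.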

How the data were processed

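Sorted blood and tumor cells of 4 pools were profiled with 10x 3′ chemistry, and hashtags told the genotypes apart. The deposited values were raw UMI counts per gene and barcode, which the authors made with Cell Ranger (6.0.1 per the submitters' processing notes, 4 per the file headers) on mm10. Seurat 4.0.6 was also listed. The labels made by the authors' demultiplexing and doublet removal were not used here. The members and gene lists were chosen with earlier results of these data known.

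Counts were summed over members of each group (python 3.11.15, numpy 2.4.6, scipy 1.17.1, pandas 2.3.3) and scaled to CPM. Genes with at least 100 UMIs over both groups of a contrast were read at a log2 limit of 1. TMM factors came from edgeR 4.0.16 in R 4.3.3, with no model fit. The scripts were tested on simulated counts. Scrublet (scanpy 1.11.5) marked 0 and 1 barcodes at its own threshold and so did not work. The top 6% of its scores served as an alternative, and doublets were otherwise kept. Named genes were the label genes, the genes of the rule, the marker and pathway lists, the 8 highest and 8 lowest ratios per contrast and the 15 genes furthest above classical monocytes. Other alternatives changed the hashtag, depth, mitochondrial and neutrophil limits, the UMI minimum and the scaling. Values of some genes are not reported here.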

Additional observations from a re-analysis of the deposited data

Results flagged for a closer look

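Some values had opposite signs in matching contrasts, and none of these differences was itself tested. Htra3 had a log2 ratio of cKO to WT of 2.16 in control blood and of -1.44 in irradiated blood. Cd274 had ratios of 1.06 and -1.41. The share of members among barcodes was 3.62 points higher in cKO in control blood and differed by -0.668 points in irradiated blood. Their share among both monocyte classes differed by 11.2 and -3.01 points, the latter -0.328 (-3.33 to 2.70) among strict members. That of barcodes was 0.212 (-0.404 to 0.848) among strict members in irradiated blood. Stfa2l1 had a log2 ratio of IR to control of 1.02 in WT and of -1.31 in cKO. Among strict members the ratios were 0.88 and 1.04. Only 4, 4, 5 and 4 strict members held a UMI of Stfa2l1, so these strict ratios are not read.

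The tumor libraries entered no comparison. There, 109 barcodes of control WT, 114 of control cKO, 83 of IR WT and 80 of IR cKO met the same limits (4.03, 4.99, 2.47 and 2.01% of labelled barcodes). They held a median of 8 to 10 nonclassical UMIs, against 18.0 to 23.5 in blood, 22.8 to 39.3% of those UMIs were from Eno3, and Ear2 stood at 93.8 to 136 CPM. They are therefore given by the rule only and not called nonclassical monocytes.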

How the results depend on the processing

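No paired analysis was possible because each group was 1 pool, and no replicate could be left out. Of 80 differences of shares recomputed, 78 were unchanged in direction and within error. The exceptions were those of strict members among barcodes, -4.24 points for IR in cKO and 0.212 points for cKO against WT after IR, the latter with the sign turned. Numbers of genes past the limit were 28, 44, 54 and 60. With at least 50 UMIs they were 69, 98, 118 and 119, and with at least 300 UMIs 14, 14, 32 and 18. Among strict members they were 25 and 20 for cKO against WT in control and irradiated blood. In irradiated blood they were 35 with WT set at 4 times the other hashtag and 33 with nonclassical UMIs at least 2 times classical. Of genes past the limit in control blood, 22.2% were higher in cKO, and this was 43.5% with the stricter hashtag, 46.5% with under 2% neutrophil UMIs, 37.2% without the highest Scrublet scores, 76.0% among strict members, 42.4% at 50 UMIs and 9.38% at 300 UMIs. In irradiated blood it was 8.33%, 30.0% among strict members and 25.2% at 50 UMIs. Signs turned for the MHC class II median after IR in cKO (-0.34, and 0.13 with nonclassical at least 2 times classical). For cKO against WT in control blood they turned for Ccl5 (1.90 with 10 nonclassical UMIs, 0.07 without barcodes of other lineages), Gzma (2.10 with 10), Nkg7 (4.04 with 10, 1.80 without other lineages, 1.72 strict) and Cstdc4 (0.23 with under 2% neutrophil UMIs), and in irradiated blood for Gzma (1.18 without other lineages). Strict members held 3 UMIs of Nkg7 and 10 of Gzma over both control groups, and 0 of Gzma over both irradiated groups. In control cKO, 1 member held 72 of the 92 NK list UMIs. The turned signs of these 2 NK genes thus rest on few UMIs or few members and are not read. Of the named-gene values, 1086 kept direction and side, 41 lost the limit, 5 gained it and 8 turned. The causes were not tested. No scaling moved the median of all genes by over 0.1. Genes under about 100 UMIs in a contrast could not be read at this depth.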

Other observations

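MHC class II expression varied among the members. The 7 class II genes held at least 1% of UMIs in 52, 76, 26 and 21 members (24.4, 24.3, 16.7 and 21.2%), with a median over all members of 0.164% and a maximum of 5.96%. The limit was set on a continuous score, and 62 of the 781 members lay between 0.8 and 1.2%. Among strict members, the 157 above the limit had more UMIs of Slamf7, an activating receptor, than the other 447 (52.7 and 9.47 CPM; log2 ratio 2.43, 1.90 to 3.07), with values of 1.83, 2.76, 2.12 and 1.96 in the 4 groups. Tmem176b was 1.68 higher (1.51 to 1.85), at 1.27, 1.97, 1.11 and 1.78 in the groups. Batf3, a factor known from dendritic cells, was 1.03 higher (0.69 to 1.38) over all groups, at 1.13, 1.28, 0.53 and 0.28 in them, and Id3 1.70 (1.25 to 2.2), at 0.52, 1.58, 1.02 and 3.63, so both varied widely between groups. Fn1 was lower (-1.74, -2.04 to -1.45), as were Fpr2 (-2.45) and Slpi (-1.60), which are genes of classical monocytes or granulocytes. The rule genes Ace, Treml4 and Adgre4 had ratios of 0.13, -0.05 and 0.08, and Ear2, Spn and Eno3 of -0.24 (-0.36 to -0.12), -0.25 (-0.40 to -0.10) and -0.25 (-0.44 to -0.07). The median number of UMIs was 0 for dendritic cell markers and 1 for B cell markers in the class II-high members, and 5 of the 157 held a dendritic cell UMI.

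Genes of proliferation were too sparse to be counted in any contrast, and summed to 10.5, 8.91, 9.76 and 53.3 CPM. In IR cKO, 3 of 99 members held 46 of the 58 UMIs. The macrophage markers summed to 6.31, 5.48, 2.30 and 26.6 CPM, and in IR cKO all 29 UMIs came from 2 members.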
